A study of Homo sapiens with 8 samples.

Results

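The NOTCH receptors, ligands and target genes were followed in the nascent RNA of fibroblasts that entered senescence. The 10 genes were NOTCH1, NOTCH2 and NOTCH3 (receptors), JAG1 and JAG2 (ligands), LFNG (an enzyme that adds sugar to receptors), and HES1, HEY1, HEY2 and HEYL (targets), and they were picked by symbol from the 27945 genes of the table. IMR90 cells, primary human lung embryonic fibroblasts, carried an inducible fusion of the estrogen receptor and oncogenic H-RAS (ER:RAS) as a drug-selected population, in low oxygen. The 4 groups of 2 libraries were control cells, labelled WT and given no treatment, and 3 groups made senescent with 100 nM 4-hydroxytamoxifen (4-OHT) and harvested on day 6, with the hairpin shControl, shMETTL3 or shMETTL14. METTL3 and METTL14 are the core of the m6A RNA methyltransferase, and each was targeted with a single hairpin. The control cells are labelled without a hairpin and without treatment. Senescence, 4-OHT, hairpin infection and the puromycin selection that went with it therefore cannot be told apart. The assay was fastGRO-seq, in which nuclei are isolated, engaged polymerases run on with a labelled nucleotide, and the labelled transcripts are captured and sequenced.

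NOTCH receptors sit in the membrane and are switched on by JAG or DLL ligands on a neighbouring cell. Binding lets ADAM10 and then gamma-secretase cut the receptor, and the freed intracellular part enters the nucleus, where it joins RBPJ and a MAML coactivator on DNA and turns on HES and HEY genes, which encode transcriptional repressors. In fibroblasts with oncogenic RAS, NOTCH1 activity is known for setting which factors senescent cells secrete, favouring a TGF-beta type of output over inflammatory cytokines.

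Total counts ranged from 14897360 to 20306299 a library, of which 86.2% to 92.5% lay in 21 rows of ribosomal RNA, and 1513930 to 2048475 counts lay on other genes. The 10 NOTCH genes held 744 to 1080 counts a library. Counts were taken over whole gene bodies and did not separate the strands: of 64 genes lying inside another of opposite orientation, only 1 had more counts than its outer gene. No NOTCH gene overlapped another counted gene apart from hosted microRNAs with at most 1 count. Overlaps were not looked up for the other pathway genes named below. METTL3 counted 80 and 78 in control, 77 and 47 in shControl cells, 16 and 19 in shMETTL3 cells and 73 and 56 in shMETTL14 cells. METTL14 counted 60 and 55, 24 and 28, 41 and 48, and 18 and 14 in the same order, and its fall from shControl to shMETTL14 did not pass the test (log2 -0.86 ± 0.34 SE, edgeR adjusted p = 0.0763). With shMETTL14 it was lower than with shMETTL3 (log2 -1.41, adjusted p = 0.00101) and than in control cells (-1.62, adjusted p = 0.000119). It was also lower in shControl than in control cells (-0.76, adjusted p = 0.0472, and 0.219 by DESeq2). The paper examined the knockdowns by western blot, and nascent RNA does not measure protein. Replicates varied most with shMETTL3, where the variance over genes was 5.26 times that of counting alone, against 1.56 to 2.52 in the other groups.

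Fibroblast genes were abundant, and most were lower in senescence. The 10 fibroblast markers summed to 23270 to 24880 normalized counts in control libraries, 11650 to 13470 with shControl, 11600 to 13940 with shMETTL3 and 8424 to 9392 with shMETTL14. Of these markers 8 were lower and 1 higher in senescence (median log2 -1.15), 2 lower and 1 higher after shMETTL3, and 7 lower after shMETTL14. Over all tested genes 13.3% were lower in senescence, 11.2% after shMETTL3 and 12% after shMETTL14. Those of endothelium, epithelium and immune cells summed to at most 115, 46.7 and 78.8. The endothelial genes PECAM1, CDH5 and KDR, the epithelial gene EPCAM and the immune gene PTPRC had at most 4 counts in any library. TEK, a receptor of endothelium, made up most of the endothelial sum, with 105 and 123 counts in control, 37 and 48 in shControl, 49 and 68 in shMETTL3 and 13 and 26 in shMETTL14 cells. It fell in senescence (log2 -1.04 ± 0.24 SE) and after shMETTL14 (-1.28 ± 0.32). Of the epithelial markers, KRT8 was higher with shMETTL14 than with shMETTL3 (1.38 ± 0.43), and CLDN4, which came through the filter only by way of shMETTL14 cells, counted 13 and 10 there and at most 6 in any other library. The 4 immune markers summed to at most 17.3 normalized counts in a control library and at least 53.2 with shControl, nearly all from CD68, a lysosomal protein of macrophages and other cells, which rose (log2 2.05 ± 0.33 SE). The part of these shifts in the NOTCH results was not tested. Senescent shControl cells had higher CDKN1A (log2 1.12 ± 0.15 SE) and CDKN2B (2.31 ± 0.22), which arrest the cell cycle, and lower LMNB1 (-2.28 ± 0.35) and MKI67 (-2.06 ± 0.24), all past the test. The other members of these lists of 4, CDKN2A and GLB1 (0.50 ± 0.27 and 0.37 ± 0.17) and CCNA2 and HMGB2 (-0.82 ± 0.55 and -1.05 ± 0.42), were not called. The 4 markers that are lower in senescence moved again in the knockdowns, from 61.2 to 110 summed normalized counts with shControl to 8.17 to 16.1 with shMETTL3, where LMNB1 and MKI67 fell, and 10.9 to 11.5 with shMETTL14, where all 4 fell. CDKN2B rose after shMETTL3 (0.94 ± 0.17) and CDKN1A after shMETTL14 (1.01 ± 0.14). The part of these shifts in the NOTCH knockdown results was not tested.

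Upstream sequence is shown for the target genes that hold a site for RBPJ, the DNA-binding partner of NOTCH, and for JAG1, a gene that rose without one. Each is the 250 bases before the gene start of the counting table, read from GRCh37 (hg19) and written 5′ to 3′ on the strand of the gene, with the RBPJ core TGGGAA, or TTCCCA where it lies on the other strand, in capitals. HES1 is at chr3:193853681-193853930 on the plus strand, HEY2 at chr6:126070482-126070731 on the plus strand, HEYL at chr1:40105349-40105598 on the minus strand and JAG1 at chr20:10654695-10654944 on the minus strand. The GENCODE annotation of this build placed 0 exons in any of these windows.
HES1: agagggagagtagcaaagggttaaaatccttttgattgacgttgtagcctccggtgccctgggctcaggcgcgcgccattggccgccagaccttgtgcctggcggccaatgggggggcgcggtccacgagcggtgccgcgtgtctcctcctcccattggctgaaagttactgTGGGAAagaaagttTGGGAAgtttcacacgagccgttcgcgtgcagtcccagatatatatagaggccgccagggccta
HEY2: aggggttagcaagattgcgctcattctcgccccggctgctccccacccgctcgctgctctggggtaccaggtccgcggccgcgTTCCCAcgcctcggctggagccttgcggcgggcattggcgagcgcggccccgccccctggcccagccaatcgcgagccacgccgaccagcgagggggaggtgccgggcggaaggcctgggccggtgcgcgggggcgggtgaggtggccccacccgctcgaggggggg
HEYL: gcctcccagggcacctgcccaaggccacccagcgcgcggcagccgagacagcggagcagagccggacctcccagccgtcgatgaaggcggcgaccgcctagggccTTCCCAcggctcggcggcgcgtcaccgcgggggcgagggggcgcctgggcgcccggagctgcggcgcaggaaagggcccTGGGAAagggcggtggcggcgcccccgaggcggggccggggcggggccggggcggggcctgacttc
JAG1: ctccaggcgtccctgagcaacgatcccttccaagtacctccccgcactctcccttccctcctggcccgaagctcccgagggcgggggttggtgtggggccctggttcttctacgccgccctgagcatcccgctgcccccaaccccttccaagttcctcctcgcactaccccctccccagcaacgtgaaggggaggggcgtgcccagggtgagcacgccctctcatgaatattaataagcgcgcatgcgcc
HES1 held 2 core matches, 78 and 64 bases upstream, HEYL 2, HEY2 1 and LFNG 1, and the windows of NOTCH1, NOTCH2, NOTCH3, JAG1, JAG2 and HEY1 held none. Of the 27820 upstream windows of this length in the table, 20.65% held the core on either strand. The longer site GTGGGAA, which contains the core, was in the windows of HES1, HEY2 and HEYL and in 5.302% of all windows. The N box CACNAG, a motif that HES proteins bind, occurred 3 times in the HES1 window, once each in those of NOTCH3 and LFNG, and in 32.24% of all windows. The E box CACGTG was in the LFNG window and in 6.262% of all windows, and no NOTCH gene held TATAAA. A match describes these letters and is not a measured site.

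**Figure D1:**
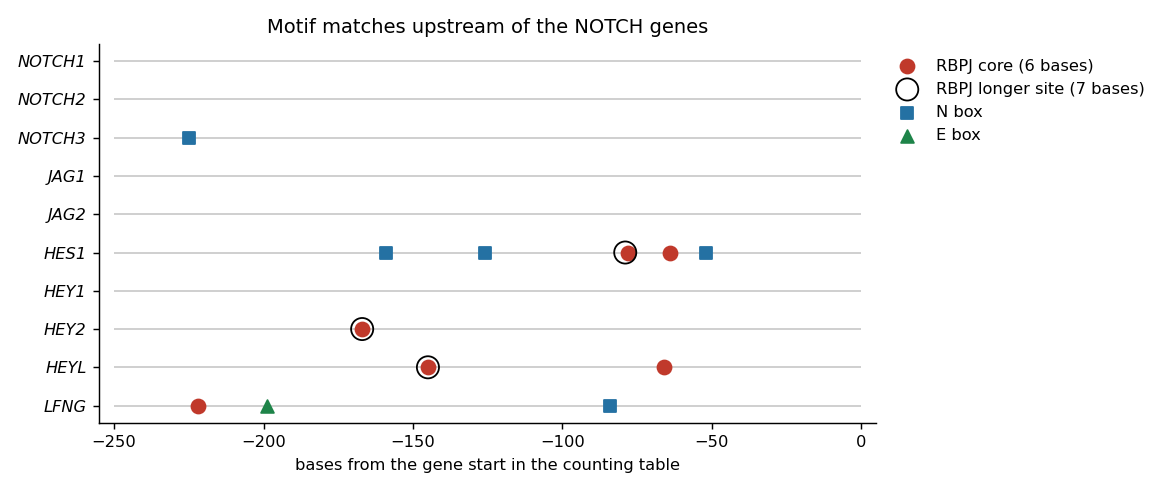
Matches to 4 motifs in the 250 bases upstream of each NOTCH gene (horizontal axis, bases from the gene start; 1 line a gene). HES1 carries 2 RBPJ cores 78 and 64 bases upstream and 3 N boxes, and 5 of the 10 genes carry none of these motifs.

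NOTCH2 made up 58.1% to 73% of the counts of the 10 genes in each library. On the scale of level per length (RPKM), the order differed between groups. RPKM here is counts per kilobase of gene, scaled to the effective library size. That size is the library size, ribosomal RNA rows included, multiplied by the TMM normalization factor of the library. In control cells NOTCH2 was highest (0.177 ± 0.0087 SD RPKM, n = 2), then NOTCH3 (0.0924 ± 0.00058), JAG1 (0.0741 ± 0.0067) and NOTCH1 (0.0698 ± 0.020), and JAG1 and NOTCH1 overlapped. HES1 stood at 0.0297 ± 0.014 RPKM there, and LFNG, with a lower mean, overlapped both HES1 and JAG2. In senescent shControl cells the targets HES1 (0.299 ± 0.068) and HEY1 (0.216 ± 0.0092) led, followed by JAG1 (0.190 ± 0.0018) and NOTCH2 (0.186 ± 0.0084), which overlapped, NOTCH3 (0.160 ± 0.00082) and NOTCH1 (0.0983 ± 0.0064). With shMETTL3, HES1 (0.600 ± 0.062) and HEY1 (0.461 ± 0.15) led and overlapped, ahead of NOTCH2 (0.213 ± 0.017), while NOTCH1 (0.135 ± 0.068) overlapped both JAG1 (0.125 ± 0.0071) and NOTCH3 (0.0898 ± 0.024), and NOTCH3 was below JAG1. With shMETTL14, HES1 (0.591 ± 0.0054) led, ahead of NOTCH2 (0.264 ± 0.018), JAG1 (0.164 ± 0.024), NOTCH1 (0.102 ± 0.025), NOTCH3 (0.0991 ± 0.011) and then HEY1 (0.0454 ± 0.044). NOTCH1 and NOTCH3 overlapped there.

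**Figure D2:**
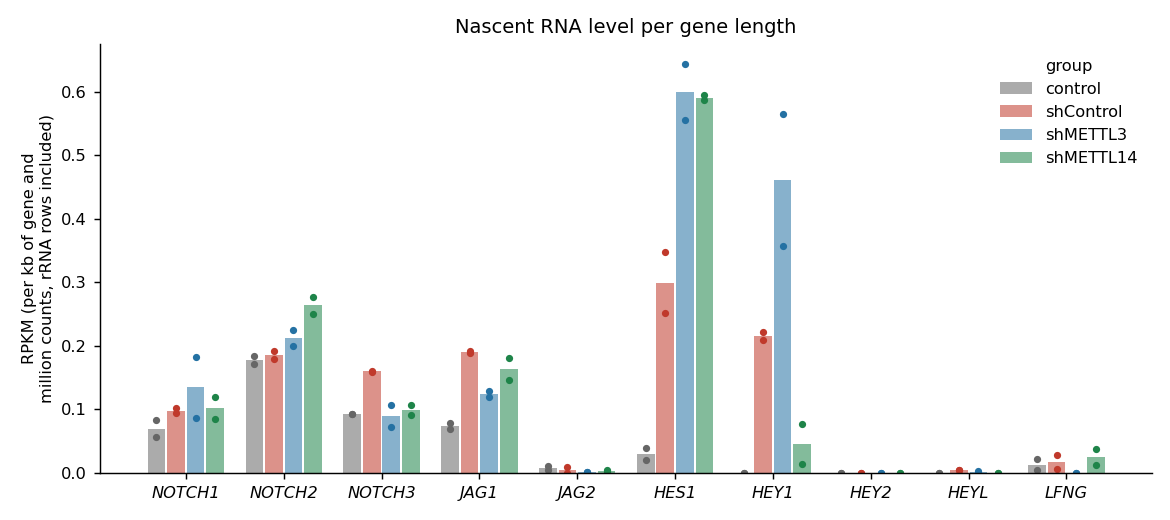
Nascent RNA level per gene length (vertical axis, RPKM) of the 10 NOTCH genes, with bars for group means, dots for the 2 libraries of each group, and colors for the 4 groups. HES1 goes from 0.0297 RPKM in control cells to 0.591 and 0.600 in the knockdown groups, and NOTCH2 stays between 0.177 and 0.264.

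Of the 10 genes, 6 passed the filter on low counts and were tested over 12844 genes with edgeR's quasi-likelihood test, in 1 fit to all 8 libraries with TMM normalization and Benjamini-Hochberg adjusted p-values, called below 0.05. HES1 and HEY1 passed only through the senescent groups, so their difference from control cells was in part set by the filter and is given by counts, with no p. HEY1 was also under the filter's minimum in shMETTL14 cells, and it reached the minimum in both shControl and both shMETTL3 libraries. JAG2, HEY2, HEYL and LFNG were not tested. JAG2 counted 3 and 6 in control cells, 4 and 0 in shControl cells, 1 and 1 in shMETTL3 cells and 2 and 1 in shMETTL14 cells. LFNG counted 4 and 1, 4 and 1, 0 and 0, and 2 and 6 in the same order. HEYL had 1 count in each shControl library, 1 in a single shMETTL3 library and 0 in the other 5 libraries. HEY2 was at 0 in all 8 libraries, and a count of 0 allows up to 3 counts, or 0.0125 to 0.0169 RPKM for a gene of its length. The lower of the shMETTL14 libraries of LFNG lies within the 3 counts that a 0 allows in those with shMETTL3. Differences in these 4 genes were not detectable at this depth. Such limits, and the counting intervals below, cover counting error only.

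**Figure D3:**
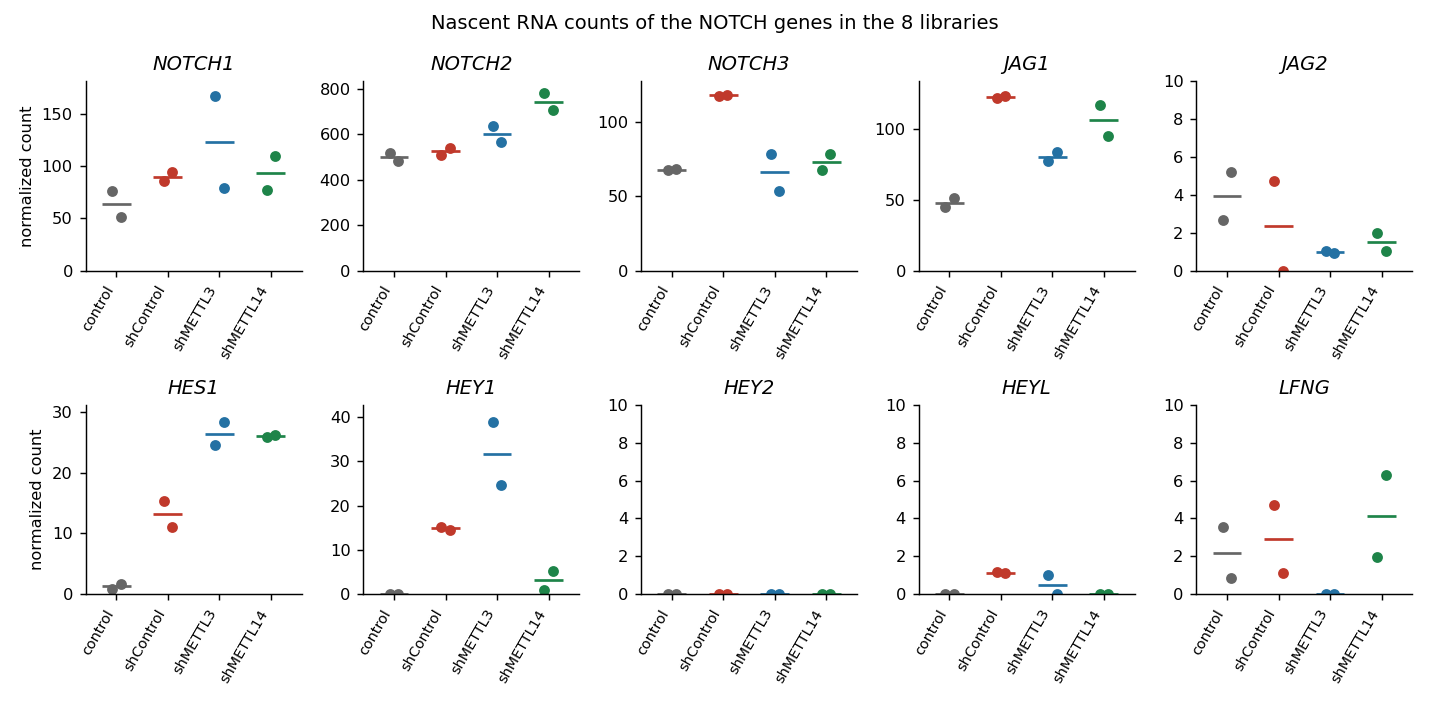
Normalized counts (vertical axis, counts scaled by TMM so that libraries compare; each panel starts at 0 with its own range) of the 10 NOTCH genes in the 4 groups, with dots for the 2 libraries and a line for their mean. NOTCH3 is highest with shControl (118 in both libraries), HES1 rises from control to the knockdown groups, and HEY1 is high with shMETTL3 and low with shMETTL14.

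The first comparison asked what changed when cells became senescent. JAG1 and NOTCH3 rose, as did the targets HES1 and HEY1, while NOTCH1 and NOTCH2 did not pass the test and no NOTCH gene fell. Of the 4 called genes, HES1 and HEY1 came through the filter by way of the senescent groups, and 2 were called where at least 10 counts were required in every library. Over all tested genes 13.3% were called higher and 13.3% lower in this comparison.

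JAG1, the ligand with the most counts, had 51 and 59 counts in the control libraries and 104 and 112 in those with shControl. Both senescent libraries lay above both control libraries, at 123 ± 1.2 (SD, n = 2) normalized counts against 48.0 ± 4.4. The rise was 2.56-fold (log2 1.36 ± 0.20 SE, edgeR adjusted p = 7.28e-06). JAG1 lies on chromosome 20 at 10618332 to 10654694, minus strand.

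NOTCH3, a receptor best known from vascular smooth muscle and pericytes (chromosome 19, 15270444 to 15311792, minus strand), had 77 and 79 counts in the control libraries, which went to 100 and 107 in shControl cells. The groups did not overlap, at 68.2 ± 0.43 and 118 ± 0.61 normalized counts, and the rise was 1.73-fold (log2 0.79 ± 0.20 SE, edgeR adjusted p = 0.00398). Under scaling by total count alone it was 0.30 on the log2 scale and was not called (adjusted p = 0.297), where the median of all genes was -0.53. Of the 6 other markers of pericytes and smooth muscle, 5 were tested, and RGS5 rose (log2 0.93 ± 0.23 SE), ACTA2 fell and 3 were not called. Their summed level was 526 to 600.5 normalized counts in control libraries and 487 to 560 with shControl, and their part in the NOTCH3 result was not tested.

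HES1, a repressor and a direct target of NOTCH in many cells (chromosome 3, 193853931 to 193856401, plus strand), had 1 and 2 counts in the control libraries, as opposed to 13 and 10 in shControl cells. Every senescent library lay above the control libraries. The ratio of summed counts, 23 against 3, was 10.0 with an exact Clopper-Pearson 95% counting interval of 3.02 to 52.1 after scaling.

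HEY1, a repressor of the related HEY family (chromosome 8, 80676245 to 80680098, minus strand), had 0 counts in both control libraries and 13 in each shControl library. Against 3 counts in each control library, which a count of 0 allows, HEY1 was at least 5.66-fold higher in senescent cells.

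NOTCH1, the receptor most studied in senescence (chromosome 9, 139388885 to 139440238, minus strand), had 87 and 59 counts in the control libraries beside 73 and 85 in shControl cells. In normalized counts both shControl libraries were above both control libraries, but the difference did not pass the test (log2 0.50 ± 0.28 SE, edgeR adjusted p = 0.198). It was called in a fit of those 2 groups alone (0.54, adjusted p = 0.0277). NOTCH2 (chromosome 1, 120454176 to 120612317, minus strand) had 587 and 557 against 432 and 489 counts, and its groups overlapped after normalization. Its log2 difference of 0.07 had a 95% interval of -0.21 to 0.35, and it became -0.42 under scaling by total count alone, where the median of all genes was -0.53. Part of NOTCH2 has a near-copy, NOTCH2NL, and reads shared between them may be split. NOTCH2NL counted 171 and 188 in control cells and 138 and 133 in shControl cells (log2 -0.02 ± 0.16 SE).

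**Figure D4:**
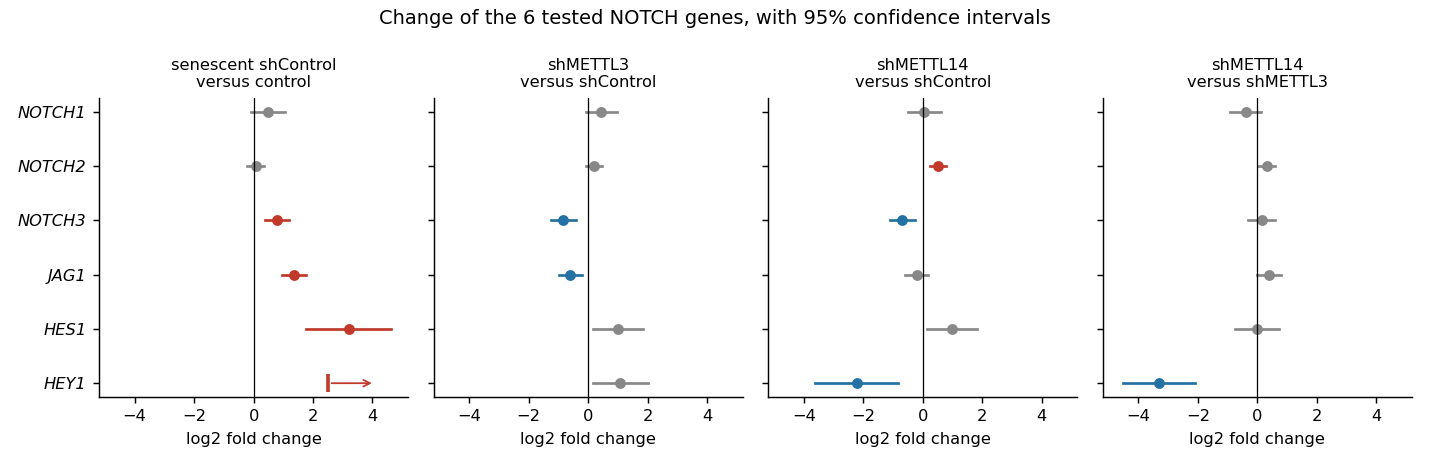
Log2 fold change (horizontal axis) with 95% confidence intervals of the 6 tested NOTCH genes in 4 comparisons, in red where called higher, blue where called lower and grey where not called; the arrow marks the lower bound for HEY1, which had no count in control cells. JAG1, HES1, HEY1 and NOTCH3 are higher in senescence, NOTCH3 is lower after either knockdown, and HEY1 is called between the knockdowns. HES1 and HEY1 passed the filter only through the senescent groups, which in part set their difference from control cells.

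The next comparison asked what METTL3 knockdown changed in senescent cells. NOTCH3 and JAG1 fell, and NOTCH1, NOTCH2, HES1 and HEY1 did not pass the test. Over all tested genes 12.2% were called higher and 11.2% lower. The same shControl libraries serve this comparison, the comparison with control cells and that of METTL14 knockdown, so a rise in the one and a fall in another are not independent.

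NOTCH3 counted 77 and 57 in shMETTL3 cells, against 100 and 107 in shControl cells. Both knockdown libraries were lower, at 66.2 ± 18 normalized counts, and the gene fell by 0.84 on the log2 scale (SE 0.21, edgeR adjusted p = 0.00376). Against control cells it differed by -0.05, with a 95% interval of -0.49 to 0.39. Under scaling by total count alone the fall in shMETTL3 cells was 0.23 and was not called, where the median of all genes was 0.58 higher. Of the 5 tested markers of pericytes and smooth muscle, CSPG4 fell in the same comparison (log2 -1.73 ± 0.22 SE, edgeR adjusted p = 1.41e-06) and 4 were not called. The 6 markers summed to 326 to 394 normalized counts with shMETTL3, below the 487 to 560 with shControl, and their part in the NOTCH3 result was not tested.

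JAG1 counted 76 and 89 in shMETTL3 cells, which after normalization placed both libraries (80.8 ± 4.6) between those of control and of shControl cells. It fell by 0.61 on the log2 scale against shControl (SE 0.19, edgeR adjusted p = 0.0215) and was still 0.75 above control cells (SE 0.21, adjusted p = 0.00518, and 0.0677 without replicate 1 of control). The fall was not called by DESeq2 (adjusted p = 0.152) or without either shControl library (0.0947 and 0.118), and under scaling by total count alone the value was 0.01.

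HES1 counted 24 and 30 in shMETTL3 cells, both above the 13 and 10 of shControl cells. The log2 difference was 1.00 ± 0.41 SE with a 95% interval of 0.16 to 1.85, and it did not pass after adjustment (edgeR adjusted p = 0.0792). HEY1 counted 38 and 26, also above the 13 and 13 of shControl cells, with a log2 difference of 1.08 ± 0.45 SE that did not pass either (adjusted p = 0.0873). Without replicate 2 of shMETTL3 the HEY1 difference was called (log2 1.36, adjusted p = 0.046).

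NOTCH1 counted 164 and 84 in shMETTL3 cells. The first library was the highest of the 8 and the second lay among the others. The log2 difference of 0.44 ± 0.26 SE was not called (edgeR adjusted p = 0.227), and it was 0.87 (adjusted p = 0.00384) without replicate 2 and -0.20 without replicate 1, so the value rested on a single library. NALT1, an RNA gene 2056 bases from NOTCH1 on the other strand, counted 6 in that first library and 0 or 1 in the other 7. NOTCH2 counted 622 and 599, with a log2 difference of 0.19 and a 95% interval of -0.08 to 0.47.

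METTL14 knockdown was set against shControl in the same way. NOTCH2 rose, NOTCH3 and HEY1 fell, and NOTCH1, JAG1 and HES1 did not pass the test. Over all tested genes 9.15% were called higher and 12% lower.

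HEY1 counted 1 and 5 in shMETTL14 cells. Both libraries were below the 13 and 13 of shControl cells and far below the 38 and 26 of shMETTL3 cells. Against shControl the log2 difference was -2.23 ± 0.68 SE (edgeR adjusted p = 0.0191), and it ran from -3.74 to -1.50 with each library left out in turn. It lost the call with DESeq2 (adjusted p = 0.0651) and without either shControl library (0.0979 and 0.0879), and without replicate 1 of shMETTL14 it was -1.50 (adjusted p = 0.259).

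NOTCH2 counted 785 and 675 in shMETTL14 cells, the highest of the 8 libraries after normalization. At 744 ± 52 normalized counts against 525 ± 24, it rose (log2 0.50 ± 0.13 SE, edgeR adjusted p = 0.00774). NOTCH3 counted 68 and 75, below both shControl libraries, and fell by 0.69 on the log2 scale (SE 0.20, adjusted p = 0.0158). Neither call held without either shControl library or without replicate 1 of shMETTL14, with adjusted p up to 0.117 for NOTCH2 and 0.160 for NOTCH3, and DESeq2 did not call NOTCH3 (0.101). Scaling by total count alone did not call NOTCH3 either (log2 -0.34, adjusted p = 0.271). NOTCH2NL counted 190 and 169 in shMETTL14 cells and its log2 difference from shControl of 0.24 ± 0.16 SE was not called. RGS5 also fell (log2 -1.18 ± 0.25 SE), while the 6 pericyte and smooth muscle markers summed to 449 to 469 normalized counts. Their part in the NOTCH3 result was not tested.

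HES1 counted 26 and 25 in shMETTL14 cells, above both shControl libraries, with a log2 difference of 0.98 ± 0.41 SE and a 95% interval of 0.13 to 1.83 (edgeR adjusted p = 0.0945). JAG1 counted 118 and 91, with a log2 difference of -0.21 and a 95% interval of -0.59 to 0.17. NOTCH1 counted 78 and 105, with a log2 difference of 0.06 and a 95% interval of -0.50 to 0.61.

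Set directly against each other, the knockdowns differed in HEY1, and the other 5 tested NOTCH genes did not pass the test. The shControl libraries, which are outside this comparison, each had enough HEY1 counts to bring the gene through the filter. HEY1 was lower with shMETTL14 than with shMETTL3 by 3.31 on the log2 scale (SE 0.59, 95% interval -4.53 to -2.09, edgeR adjusted p = 9.33e-05), where 16.5% of all tested genes were called higher and 18.7% lower. With each of the 8 libraries left out in turn, including those outside the comparison, the log2 value stayed between -4.82 and -2.58. HES1, by contrast, had a difference of -0.02 with a 95% interval of -0.77 to 0.72. For NOTCH3 the interval was -0.30 to 0.59, for JAG1 0.00 to 0.79, for NOTCH2 0.04 to 0.58 and for NOTCH1 -0.91 to 0.13. NOTCH2 was called higher with shMETTL14 where at least 10 counts were required in every library (log2 0.34, adjusted p = 0.0388) and without replicate 1 of shMETTL3 (0.41, adjusted p = 0.0237). NOTCH1 was called lower without replicate 2 of shMETTL3 (-0.82, adjusted p = 0.00333) and under scaling by total count alone (-0.64, adjusted p = 0.0255).

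Upstream of HEY1 lie a pair of RNA genes that overlap each other on opposite strands and so share reads. LINC01607 starts 279 bases from HEY1 and counted 1 and 0 in control cells, 2 and 0 in shControl cells, 8 and 6 in shMETTL3 cells and 3 and 3 in shMETTL14 cells. LOC101927040, 1517 bases away, counted 1 and 1, 3 and 3, 17 and 11, and 4 and 3. Both were highest in the shMETTL3 libraries, as HEY1 was. LINC01607 was too low to test, and LOC101927040 passed the filter only through shMETTL3 cells, where it was high, so no test of either is given. These neighbors were looked up after the HEY1 values were seen.

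The senescent knockdown groups were also compared with control cells. With shMETTL3, NOTCH1 (log2 0.94 ± 0.26 SE) and JAG1 were called higher and none lower, against 20.1% of all genes higher and 20.1% lower. HES1 and HEY1 were also called higher. They came through the filter by way of the senescent groups, so their calls against control cells were in part set by it. With 10 counts required in every library, which leaves out HES1 and HEY1, 2 were higher with shMETTL3 and 2 with shMETTL14. The NOTCH1 call was lost without replicate 1 of shMETTL3 (log2 0.31, adjusted p = 0.319) and without replicate 2 of control (0.67, adjusted p = 0.103). HES1 was 20.2-fold above control cells by summed counts (54 against 3, counting interval 6.56 to 101), and HEY1 at least 12.1-fold. With shMETTL14, NOTCH2 (log2 0.57 ± 0.13 SE) and JAG1 (1.15 ± 0.20) were called higher and none lower, against 19.7% and 20.5% of all genes. HES1 and HEY1 were called higher here as well, under the same limit of the filter. HES1 was 19.8-fold above control cells (51 against 3 counts, counting interval 6.42 to 99.5). For HEY1, with 1 and 5 counts against 0 and 0, no fold is given, and its call did not hold without either control library or without replicate 2 of shMETTL14. NOTCH1 was not called with shMETTL14 (log2 0.55, edgeR adjusted p = 0.109), and it was called with no filter (adjusted p = 0.0331), in a fit of those 2 groups alone (0.0398) and without either shMETTL3 library (0.022 and 0.0211). NOTCH3 differed from control cells by 0.10 with shMETTL14, with a 95% interval of -0.34 to 0.54.

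The rest of the pathway was read from a list of 70 genes, of which 52 were tested. In senescent shControl cells 12 were higher and 10 lower, against 13.3% of all tested genes in each direction, with a median log2 change of 0.17 against -0.03 over all tested genes. The 12 include DNER, which passed the filter only through the senescent groups. DESeq2 called 6 higher and 7 lower. Without replicate 2 of shControl 5 were higher, without replicate 1 or 2 of control 7 and 6, and under scaling by total count alone 3 were higher and 20 lower. After shMETTL3, 10 were higher and 5 lower, against 12.2% and 11.2% of all tested genes (median -0.02, against -0.03). DESeq2 called 6 higher and 3 lower there, scaling by total count alone 29 and 1, and without either shControl library or replicate 2 of shMETTL3 there were 3 to 5 higher and 3 lower. Without replicate 1 of shMETTL3, 11 were higher and 8 lower. After shMETTL14, 8 were higher and 10 lower, against 9.15% and 12% (median -0.02, against -6.39e-05). DESeq2 called 3 higher and 7 lower there, and scaling by total count alone 17 and 5. Without either shControl library or either shMETTL14 library there were 1 to 4 higher and 5 to 8 lower. Between the knockdowns 6 were higher and 14 lower with shMETTL14, against 16.5% and 18.7% (median 0.06, against 0.01). The 6 became 10 without replicate 1 of shMETTL3 and 3 under scaling by total count alone.

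Most other receptors and ligands were scarce. NOTCH4 had 0 counts in all 8 libraries, and DLL1 and DLL3 had at most 2 counts in any library. DLL4, a ligand best known from vessels, counted 19 and 18 in control cells, 3 and 8 in shControl cells, 12 and 13 in shMETTL3 cells and 1 and 1 in shMETTL14 cells. It was highest in both control libraries and lowest in both shMETTL14 libraries. DNER, an atypical ligand of neurons that passed the filter only through the senescent groups, counted 3 and 4 in control cells, 69 and 82 in shControl cells, 18 and 14 in shMETTL3 cells and 18 and 17 in shMETTL14 cells. Every senescent library lay above both control libraries, and both shControl libraries lay above those of either knockdown. DLL4 and DNER were singled out after their values were seen. The paper also lists DNER among its genes higher in senescence and lower after knockdown.

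Receptor cleavage was represented by 9 tested genes, 4 of them higher and 1 lower in senescence, against 13.3% of all tested genes in each direction. ADAM10, the protease that makes the first activating cut, counted 760 and 826 in control cells, 455 and 461 in shControl cells, 456 and 594 in shMETTL3 cells and 219 and 253 in shMETTL14 cells. The shMETTL14 libraries were the lowest, and the gene fell by 1.11 on the log2 scale against shControl (SE 0.15, edgeR adjusted p = 2.70e-06). APH1B, a gamma-secretase subunit, also fell there (-1.39 ± 0.36), and ADAM17, a related protease, rose (0.65 ± 0.16). Both shMETTL3 libraries of ADAM17 also lay above both with shControl. Its means were 165 normalized counts with shControl, 243 with shMETTL3 and 258 with shMETTL14. FURIN, which cleaves receptors on their way to the membrane, counted 81 and 107 in shControl cells and 57 and 45 in shMETTL3 cells, and fell by 1.09 (SE 0.24, adjusted p = 0.00137).

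Of the 8 genes of the nuclear complex, MAML3 changed most after shMETTL3 and RBPJ after shMETTL14. RBPJ counted 1534 and 1638 in control cells, 1530 and 1479 in shControl cells, 1420 and 1799 in shMETTL3 cells and 599 and 740 in shMETTL14 cells. It was lowest in both shMETTL14 libraries, with a log2 change of -1.33 ± 0.15 SE against shControl (edgeR adjusted p = 1.67e-07) and -0.13 ± 0.14 after shMETTL3, and the direct difference between the knockdowns was -1.20 ± 0.15 (adjusted p = 4.59e-07). MAML3, a coactivator, counted 224 and 215, 398 and 381, 1398 and 1761, and 606 and 683 in the same order of groups. It rose in senescence (log2 1.21 ± 0.15 SE), rose further after shMETTL3 (1.80 ± 0.14) and after shMETTL14 (0.57 ± 0.14), and the knockdowns differed (-1.23 ± 0.14, adjusted p = 1.22e-07).

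Among 10 tested corepressors, 4 fell in senescence and none rose, where 13.3% of all tested genes fell and 13.3% rose. TLE4, of the Groucho family that HES proteins recruit, counted 369 and 387 in control cells, 134 and 141 in shControl cells, 346 and 463 in shMETTL3 cells and 119 and 173 in shMETTL14 cells. It fell in senescence (log2 -1.07 ± 0.17 SE), rose after shMETTL3 (1.33 ± 0.17 against shControl, edgeR adjusted p = 1.19e-06, and 0.26 ± 0.15 against control cells, not called) and did not change past the test after shMETTL14 (-0.07 ± 0.18). CTBP2 fell in senescence (-0.87 ± 0.14), CTBP1 after shMETTL3 (-0.56 ± 0.20) and CIR1, which bridges RBPJ to histone deacetylases, after shMETTL14 (-1.06 ± 0.28), where TLE1 rose (0.63 ± 0.19).

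NUMB, an adaptor that restrains NOTCH receptors by endocytosis, counted 646 and 744 in control cells, 1875 and 1715 in shControl cells, 3546 and 4017 in shMETTL3 cells and 1283 and 1664 in shMETTL14 cells. It rose in senescence (log2 1.76 ± 0.15 SE, edgeR adjusted p = 9.58e-10), rose again after shMETTL3 (0.85 ± 0.15) and fell after shMETTL14 (-0.44 ± 0.15, adjusted p = 0.0340), and the direct difference was -1.30 ± 0.15. Its relative NUMBL went the other way in senescence (-1.24 ± 0.29) and fell again after shMETTL3 (-1.08 ± 0.37), and the ubiquitin ligase DTX3L also fell in senescence (-1.27 ± 0.28). BCL6, a repressor that can displace MAML from NOTCH, was higher after both knockdowns (0.86 ± 0.27 and 0.93 ± 0.27). SGK1, a kinase that promotes receptor turnover, rose in senescence (0.86 ± 0.28). Of the other targets, MYC rose in senescence (0.99 ± 0.26) and after shMETTL14 (0.83 ± 0.22), CCND1 fell after shMETTL3 (-0.73 ± 0.13), and NRARP and HES5 had 0 counts in all 8 libraries.

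**Figure D5:**
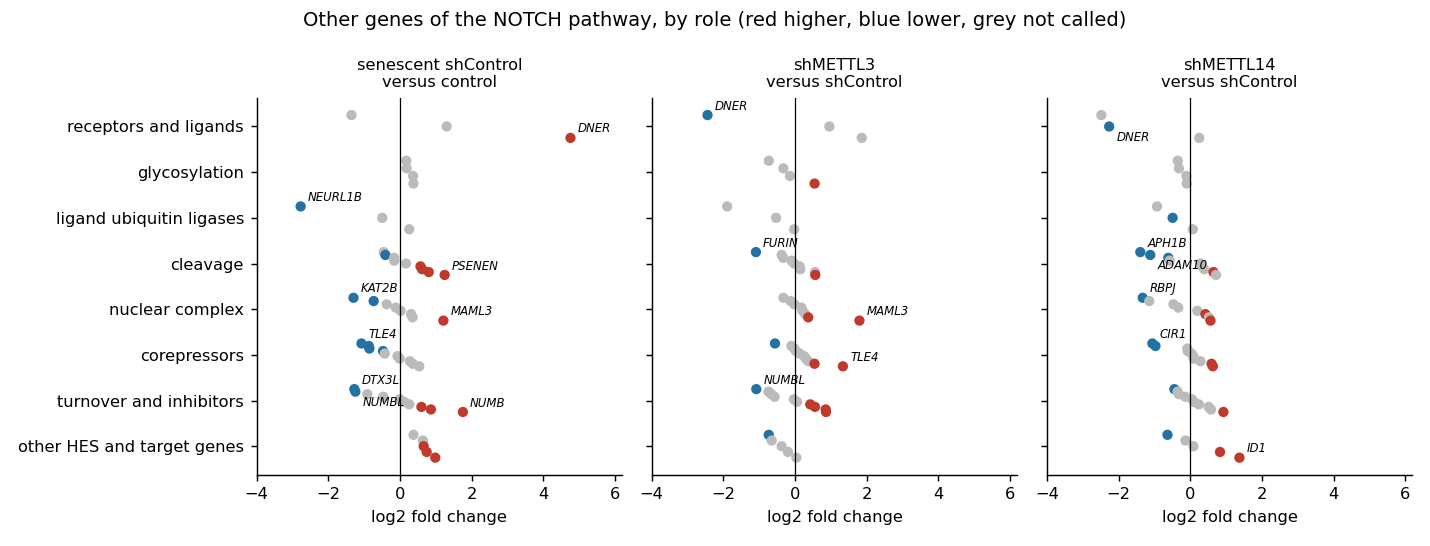
Log2 fold change (horizontal axis) of the 52 tested genes of the wider NOTCH pathway in 3 comparisons, grouped by role (vertical axis), in red where called higher, blue where called lower and grey where not called; called genes beyond 1 are named. MAML3 and NUMB are higher in senescence and after shMETTL3, and RBPJ, ADAM10 and APH1B are lower after shMETTL14.

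The secreted factors linked to NOTCH in senescence were followed in 2 lists. Of the 7 genes of the inflammatory list, IL1A, IL1B, IL6, CXCL8 and CXCL1 rose in senescence and fell after each knockdown, where 13.3% of all tested genes rose in senescence and 11.2% and 12% fell after shMETTL3 and shMETTL14. IL1A, IL1B, IL6 and CXCL1, with under 10 counts in at least 1 control library, came through the filter by way of the senescent groups, so their rise was in part set by it. CXCL8, for example, counted 38 and 41, 4396 and 4004, 632 and 905, and 1104 and 911 in the 4 groups. CEBPD, which encodes a transcription factor of the same family as CEBPB, was not called in senescence (log2 -0.48 ± 0.37 SE) or after either knockdown (-0.89 ± 0.43 and -0.62 ± 0.42 against shControl), and it was lower than in control cells in both knockdown groups (-1.37 ± 0.40 and -1.10 ± 0.39, edgeR adjusted p = 0.00683 and 0.0247). CEBPB, a factor that drives such cytokines, did not pass the test in senescence (log2 0.67 ± 0.28 SE, edgeR adjusted p = 0.0739) and rose after shMETTL14 (0.71 ± 0.25). Among the tested genes of the TGF-beta list, TGFB1 (0.89 ± 0.23) and TGFBI (0.63 ± 0.15) rose in senescence, TGFB2 was not called, and CTGF (-1.13 ± 0.14), COL1A1 (-1.49 ± 0.17), COL1A2 (-1.54 ± 0.18) and COL3A1 (-1.86 ± 0.20) fell. TGFB1 encodes the ligand, and the genes that fell encode matrix proteins. After shMETTL14, TGFBI and the 3 collagen genes fell and CTGF rose, and after shMETTL3, TGFB2 rose and CTGF fell.

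The genes most like HES1, NOTCH2 and HEY1 in their profile over the 8 libraries were sought among 3862 genes that averaged 100 counts or more, by Pearson's r of log2 CPM. These 8 points are 4 groups of 2 and share their group means, so r is a description. HES1 was closest to LINC02262 (r = 0.996), MCTP1 (0.994) and LINC02154 (0.993), and NOTCH2 to RUVBL1 (0.985), SESN2 (0.972) and RUSC2 (0.969). HEY1 was closest to RN7SL3 (0.993), SCARNA12 (0.988) and MME (0.987).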

How the data were processed

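Nascent RNA of 8 fastGRO-seq libraries was analysed. The deposited values are raw counts, which the authors made with HOMER over whole gene bodies of hg19 genes, not normalized, with 1 column for each library. The submitters' processing notes also name STAR and deepTools 3.3. All 8 columns were mapped to samples, and the deposited gene lengths were used for RPKM. No spike-in scaling was applied, and values are relative to the other genes of a library. The labels do not say whether replicates came from separate cultures, while the study describes the senescent and control fastGRO-seq runs as biologically independent, and p-values measure the spread between these libraries.

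Groups were tested in R 4.3.3 with edgeR 4.0.16 (TMM, filterByExpr with a minimum count of 10 by group, 1 quasi-likelihood fit to 8 libraries, Benjamini-Hochberg threshold 0.05). Of 27945 rows, 6423 had no count and 12844 were tested. Scripts were tested on simulated data. Normalized counts are counts divided by the effective library size relative to its mean over libraries. With 2 libraries a group, a permutation test of a single gene could not reach the threshold. Alternatives were DESeq2 1.42.0, library size alone, other filters, fits of only the groups compared, a replicate block, an adjusted p below 0.01, removal of ribosomal RNA rows and each library left out.

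The NOTCH genes and all lists were chosen with earlier results of these data known. Of the wider pathway, the 4 largest rises and 4 largest falls called in each of the first 3 comparisons, with a mean of at least 30 counts, are named. A gene of the TGF-beta list is not reported here. The same-numbered replicates were checked for pairing by the correlation of their deviations from group means over 6318 genes, which ranged from -0.06 to 0.268 between groups, so the numbers were not taken as pairs. Upstream windows were read from GRCh37. Plots were drawn with matplotlib 3.10.9.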

Additional observations from a re-analysis of the deposited data

Results flagged for a closer look

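HEY1 differed between the knockdowns in senescent cells. It was higher than with shControl in both shMETTL3 libraries and lower in both shMETTL14 libraries, and the test of the difference itself gave a log2 value of -3.31 for shMETTL14 against shMETTL3 (edgeR adjusted p = 9.33e-05). The gene was under the filter's minimum with shMETTL14 and came through it by its 13 counts in each shControl library as well as with shMETTL3. Its 38 and 26 counts against 1 and 5 are few, and with at least 10 counts required in every library the gene was not tested.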

How the results depend on the processing

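Each group had only 2 libraries, and the part of depth and group size in the calls was not tested. HES1 and HEY1, with few counts, had wide intervals, and 4 of the 10 NOTCH genes could not be tested. Under library size alone, which moved the median of all genes by -0.53 in senescence, 0.58 after shMETTL3, 0.351 after shMETTL14 and -0.248 between the knockdowns, 752 genes were higher and 5007 lower in senescence, 5285 and 353 after shMETTL3, and 3163 and 710 after shMETTL14. The numbers of NOTCH genes then became 3 higher and 1 lower in senescence, 4 higher and 0 lower after shMETTL3, 2 higher and 1 lower after shMETTL14, and 2 lower between the knockdowns. Here and below, numbers called against control cells include HES1 and HEY1 where these were tested, and the filter in part set their calls. NOTCH3 lost its calls in senescence (0.296, adjusted p = 0.297), after shMETTL3 (-0.232, 0.445) and after shMETTL14 (-0.344, 0.271). NOTCH2 in senescence reversed to -0.424, which is 0.106 above that median, and JAG1 after shMETTL3 to 0.0106, which relative to the median is -0.569. Values called in neither fit also changed sign, to -0.462 for METTL3 in senescence, 0.251 for METTL3 and 0.145 for JAG1 after shMETTL14, and for NOTCH3 to -0.111 between the knockdowns and 0.0637 and -0.0475 with shMETTL3 and shMETTL14 against control cells.

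The other alternatives moved the number of NOTCH genes called as follows. With at least 10 counts in every library, where HES1 and HEY1 are not tested, 2 were higher in senescence and in each knockdown group against control cells, 1 was lower after shMETTL14, and 1 was higher and 0 lower between the knockdowns. DESeq2 called 1 lower after shMETTL3 and 0 lower after shMETTL14. An adjusted p below 0.01 left 1 and 0 lower. With single libraries left out, where the lone sample of a group is assumed to vary like the other groups, genes called ranged from 0 to 2 higher and 1 to 2 lower after shMETTL3, 0 to 1 higher and 0 to 2 lower after shMETTL14, and 0 to 1 higher and 1 to 2 lower between the knockdowns.

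The numbers do not pair the samples, and the fit with a replicate block kept every NOTCH gene on its side of the threshold, with 4 higher in senescence, 2 lower after shMETTL3, and 1 higher and 2 lower after shMETTL14. In the next count each library was left out for every comparison, also where it belonged to neither group compared. Part of those values could therefore change little, and the count also holds HES1 and HEY1 against control cells. Of 288 log2 values of the 6 tested NOTCH genes with 1 library left out, 257 kept direction and side of the threshold, 17 lost the call, 6 gained it and 8 changed sign. The values that changed sign were called neither in the full fit nor where the sign changed, and their ranges over the 8 left-out libraries were, for NOTCH1, -0.198 to 0.873 after shMETTL3, -0.217 to 0.268 after shMETTL14 and -0.822 to 0.25 between the knockdowns. For NOTCH3 they were -0.089 to 0.452 between the knockdowns, -0.343 to 0.199 with shMETTL3 against control cells and -0.00119 to 0.221 with shMETTL14 against control cells, and for HES1 -0.109 to 0.104 between the knockdowns. METTL3 ranged from -0.397 to 0.404 in senescence, -0.467 to 0.335 after shMETTL14 and -0.218 to 0.0825 with shMETTL14 against control cells. The causes of these changes were not tested.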
